A study of Mus musculus with 8 samples.

Results

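Wntless (Wls) and Porcupine (Porcn) are the 2 genes that a cell needs, whichever Wnt it makes, to send that Wnt out. They were found by gene symbol among 46517 genes in the bulk RNAseq files and 24051 genes in the snRNAseq matrices of adult mouse hippocampus, and both were present in each. Porcn encodes an acyltransferase of the endoplasmic reticulum that attaches a palmitoleate to Wnt proteins. The Wls protein is a membrane carrier that binds the acylated Wnt, takes it to the cell surface and is itself recycled through endosomes by the retromer. A cell without Wls can still make Wnt proteins and can still respond to Wnts from its neighbours, but it does not secrete its own. In the hippocampus, Wnts from the cortical hem and from neural progenitors are known for driving the formation of the dentate gyrus, where the granule cells (DGCs) lie.

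Mutant mice were Gfap-Cre;Wls fl/- and control mice were Gfap-Cre;Wls fl/+, so that Cre recombinase and 1 floxed copy of Wls were present in every animal. Both hippocampi of 1 adult mouse gave 1 bulk RNAseq library, with 2 mice of each genotype, and the nuclei of both hippocampi of 1 mouse gave each of 2 snRNAseq samples per genotype. The floxed copy is removed in cells that have, or whose progenitors had, activity of the Gfap promoter that drives Cre, and these include neural progenitors as well as astrocytes. In a recombined cell the mutant has no working copy and the control retains 1, whereas in a cell without recombination the mutant still has 1 working copy and the control has 2. The comparison of the genotypes therefore sets fewer copies against more in every cell, recombined or not.

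Wls (ENSMUSG00000028173) lies on the plus strand of chromosome 3 from 159839672 to 159938664 in GRCm38 (mm10) and spans 98993 bases in 12 exons. LoxP sites flank its first exon in the floxed allele, which runs from 159839672 to 159840047 and holds the start codon. The coding part of that exon, chr3:159839942-159840047 on the plus strand, is shown because it is the coding stretch whose loss the genotype implies. The capitals mark the start codon.
Wls, coding part of the first exon: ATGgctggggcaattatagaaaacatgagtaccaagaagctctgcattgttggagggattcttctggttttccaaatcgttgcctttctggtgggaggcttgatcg
These 106 bases are a small part of the 1623 coding bases of the main transcript, and 1 of the 7 annotated Wls transcripts starts downstream of the first exon. The deposited values count reads over the whole gene, in the nuclei with introns included, so RNA made from a recombined copy can still be counted. The values below are of total Wls RNA and do not count the deleted exon itself. Porcn (ENSMUSG00000031169) lies on the minus strand of the X chromosome from 8193848 to 8206525, spans 12678 bases and was not targeted.

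Library totals were 56002381 to 79576196 expected counts in bulk, and the 4 snRNAseq samples held 5304 to 10460 nuclei with medians of 4128 to 7544.5 UMIs. Pairs of samples shared 8 to 21 nucleus barcodes. The bulk libraries of replicate 2, mutant and control alike, stood apart in sex-linked RNA, with Xist at 230 and 518 CPM (counts scaled to a common library total) against 1.44 and 1.05 in replicate 1, and Ddx3y at 0.352 and 0.343 CPM against 54.5 and 58.3, although the protocol names male mice. All 4 snRNAseq samples had Ddx3y at 31.6 to 53.8 CPM and Xist at 1.60 to 3.49 CPM. In bulk, the summed markers of DGCs stood at 51.3 and 39.3 CPM in the mutants against 318 and 329 in the controls, and those of choroid plexus at 1185 and 8295 CPM against 312 and 197. The part of these differences between libraries in the results below was not tested unless a value is given.

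In bulk RNAseq, Wls RNA was lower in both mutants than in both controls and Porcn RNA was nearly level. Wls stood at 2.61 and 5.44 TPM (transcript level corrected for gene length) in the mutants and at 10.52 and 10.12 TPM in the controls. The ranges did not overlap, and the controls differed far less from each other than the mutants did. The share of all bulk genes with ranges apart is not given here, for Wls or for Porcn below. On the CPM scale, which the test used, the log2 fold change of Wls was -1.31 (SE 0.296, n = 2 and 2), a 2.48-fold lower level, with an adjusted p of 0.117 (edgeR's quasi-likelihood test, Benjamini-Hochberg over 20687 genes). That was short of both thresholds of the bulk call, a fold change (FC) above 3 and a false discovery rate (FDR) below 0.05, which 0.198% of all genes tested passed in the lower direction. Dropping any single library gave log2 fold changes of Wls from -1.84 to -0.94. The -1.84 came from the fit without mutant replicate 2, where the FC passed 3, which it did not at -0.94. The spread in the fit without mutant replicate 2 came from the 2 controls alone, and the lone mutant library was assumed to vary as they did.

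Within replicate 1, whose libraries had male levels of the sex-linked genes, control Wls was 3.60 times mutant Wls, and within replicate 2 it was 1.90 times. The direction was therefore the same within each pair of libraries with like sex-linked RNA. Mutant replicate 2 was also the library with the most choroid plexus RNA, and nuclei labelled choroid plexus had Wls at 117 and 120 CPM in the snRNAseq. In bulk tissue, fewer cells of a type and less RNA per cell cannot be told apart.

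Porcn stood at 65.23 and 64.70 TPM in the mutants and at 73.94 and 71.27 TPM in the controls. These ranges also did not overlap, but the step was small. The log2 fold change on the CPM scale was -0.10 (SE 0.0585) with an FDR of 0.451 by edgeR, and no bulk library left out brought it past -0.15. Since TPM is per length, the members can be set side by side: Porcn RNA was 7.03 and 7.04 times Wls RNA in the controls, and 25.0 and 11.9 times in the mutants.

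**Figure D1:**
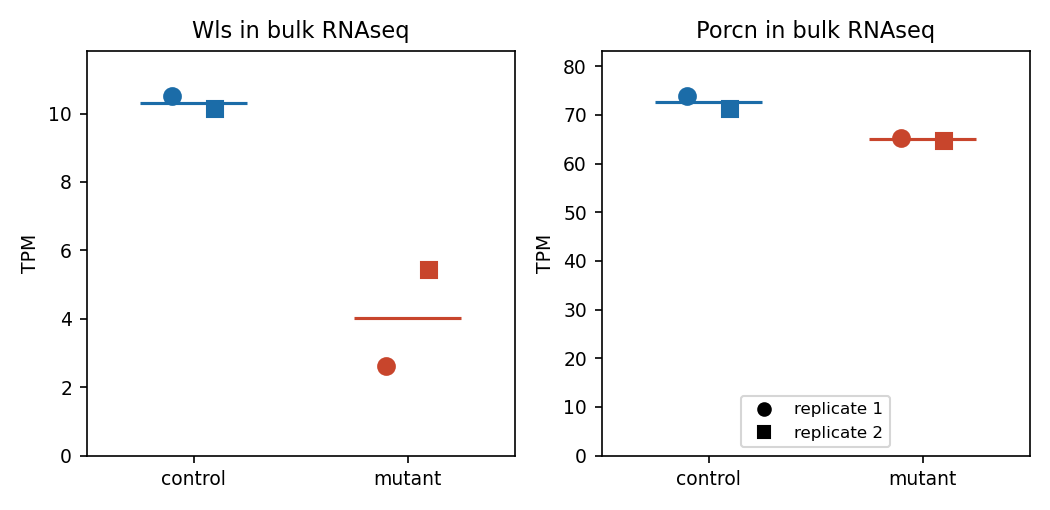
Wls (left) and Porcn (right) in bulk RNAseq, in TPM on linear axes from 0, for 2 control and 2 mutant libraries; each point is a library, circles are replicate 1, squares are replicate 2 and the horizontal line is the group mean. Both mutant libraries lie below both controls for each gene, with Wls at 2.61 and 5.44 against 10.52 and 10.12 TPM and a much smaller step for Porcn.

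No gene next to Wls passed the test in bulk. Lrrc7, the nearest well-expressed neighbour on the left, had a log2 fold change of -0.04 (edgeR FDR 0.801). Gm20752, also on the left, was below 1 CPM in every library and had a log2 fold change of -0.91 (edgeR FDR 0.432). Gm43307, an unspliced locus inside Wls on the same strand, was listed at 8.34 and 7.07 CPM in the mutants and 6.43 and 7.77 CPM in the controls (log2 fold change 0.12, edgeR FDR 0.764), and reads there may be shared with Wls introns.

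The snRNAseq separates the cell types that bulk tissue mixes, and there the difference in Wls was much larger in some types than in others. Of the 21 cell types that the authors assigned, 18 had at least 10 nuclei in every sample and are compared here on UMIs summed per sample and type. Summed marker genes matched the assigned names of most types, with exceptions. The cluster labelled inhibitory neurons 14 had inhibitory markers (Gad1, Gad2, Slc32a1) at 67.7 CPM, against 610 to 1604 CPM in the inhibitory clusters 5, 12 and 18, and had meningeal, endothelial and mural markers at 1829, 2050 and 1638 CPM. Astrocyte markers (Aqp4, Slc1a2, Slc1a3, Gja1 and Gfap) were at 1855 CPM in that same cluster, against 12156 CPM in nuclei labelled astrocytes. The cluster labelled excitatory neurons 19 had meningeal markers at 756 CPM, excitatory markers at 184 CPM and astrocyte markers at 1005 CPM. Both are called cluster 14 and cluster 19 below. Nuclei labelled microglia had microglial markers at 5998 CPM and astrocyte markers at 4062 CPM, nearly all of it Slc1a3 (3962 CPM), while Aqp4 and Gfap were at 11.8 and 8.7 CPM.

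In the control hippocampus, Wls RNA was highest in nuclei that are not excitatory neurons. Cluster 14 led with 499 and 471 CPM in control replicates 1 and 2. Cluster 19 followed with 349 and 320 CPM, and microglia with 160 and 208 CPM. Oligodendrocytes, inhibitory neurons 12, inhibitory neurons 5, OPCs (oligodendrocyte precursors), astrocytes and inhibitory neurons 18 formed a middle range from 38.8 to 88.7 CPM. Excitatory cells were lower, with CA1 pyramidal cells at 16.5 and 14.8 CPM, CA3 pyramidal cells at 4.13 and 6.71 CPM and granule cells (GC) at 3.34 and 4.43 CPM. Of the 17 pairs of neighbours in this order, 10 overlapped between the 2 mice, so the order holds for the ranges named and not for each step within them.

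A large part of the Wls UMIs of a control sample lay in CA1 cells and inhibitory neurons 5. CA1 cells were 18.7% and 18.0% of the nuclei in control replicates 1 and 2, and inhibitory neurons 5 were 5.89% and 5.49%. CA1 held 22.5% and 15.1%, inhibitory neurons 5 held 21.7% and 18.3%, and cluster 14 held at most 14.5%. In the mutants, the largest holder was inhibitory neurons 5, with 34.4% and 24.1%. Nuclei labelled choroid plexus (CP) held another 12.8% in mutant replicate 2.

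**Figure D2:**
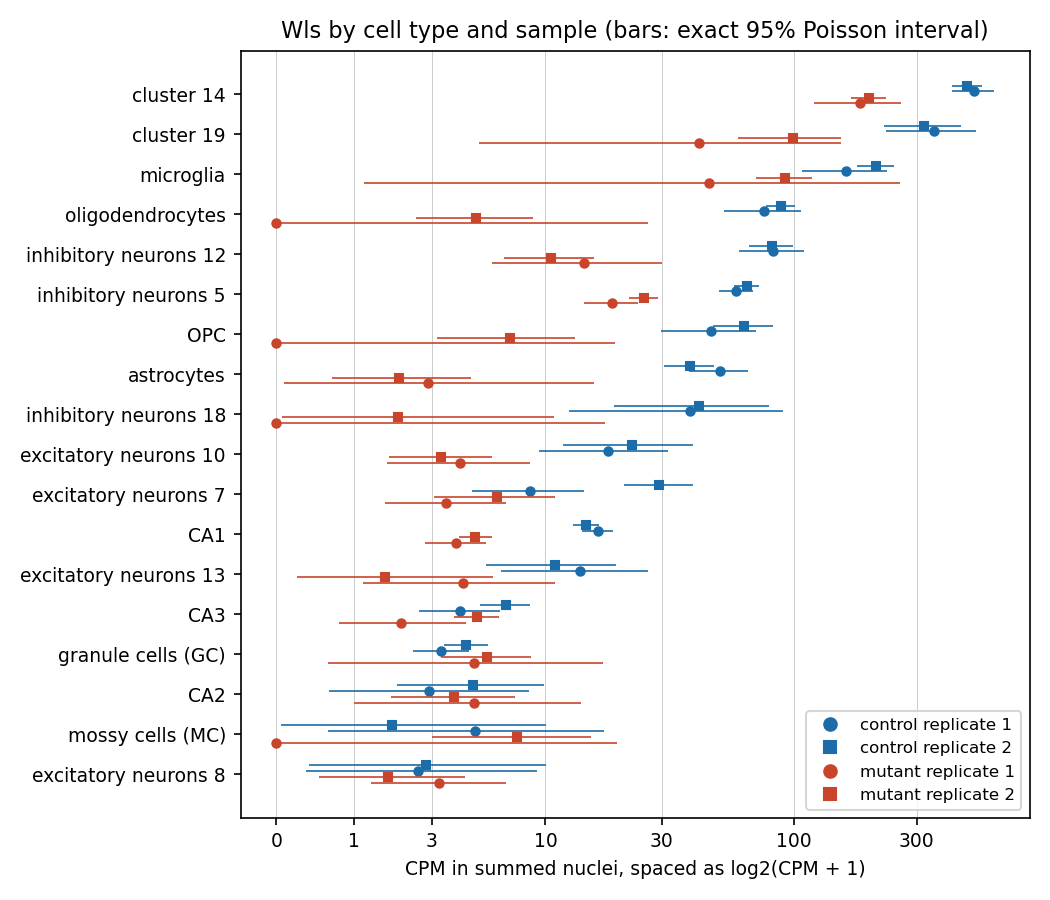
Wls level in CPM (axis spaced as log2(CPM + 1)) in the summed nuclei of each of 18 cell types, for the 4 snRNAseq samples; blue is control, red is mutant, circles are replicate 1, squares are replicate 2, and bars are exact 95% Poisson intervals, which cover counting error only. Types are ordered by control level, from cluster 14 at 499 and 471 CPM down to excitatory neurons 8 at 2.54 and 2.78 CPM, and the red points lie left of the blue ones in 13 of the 18 types.

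Astrocytes and cells of the oligodendrocyte lineage lost most of their Wls RNA. In astrocytes, where Gfap is a defining gene, Wls was at 51.0 and 38.8 CPM in the controls (57 and 80 UMIs) and at 2.87 and 1.99 CPM in the mutants (1 and 5 UMIs). In oligodendrocytes, the myelinating cells, it was at 76.2 and 88.7 CPM in the controls, at 0 in mutant replicate 1 and at 4.93 CPM in mutant replicate 2. In OPCs it was at 47.2 and 63.7 CPM in the controls, at 0 in mutant replicate 1 and at 6.99 CPM in mutant replicate 2. No mutant sample came near a control in any of these 3 types. The zeros come from 73 oligodendrocyte and 89 OPC nuclei and allow up to 21.5 and 15.8 CPM, still below every control value.

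The log2 fold changes were -4.28 (SE 0.452) in astrocytes, -4.14 (SE 0.412) in oligodendrocytes and -3.16 (SE 0.469) in OPCs, with edgeR FDRs (quasi-likelihood, Benjamini-Hochberg) of 2.27e-04, 6.87e-05 and 0.00634. Wls had the lowest p of 11482 genes tested in astrocytes and of 10086 in oligodendrocytes, and stood at rank 3 of 9122 in OPCs. Pooled over samples, mutant Wls was 4.86% of control in astrocytes (95% counting interval 1.75% to 10.9%), 5.34% in oligodendrocytes (2.63% to 9.71%) and 10.5% in OPCs (4.65% to 21.0%). The call, FC above 2 and FDR below 0.05, was passed in the lower direction by 0.253% of genes in astrocytes, 0.0892% in oligodendrocytes and 0.121% in OPCs. The call in astrocytes was lost without mutant replicate 2 (edgeR FDR 0.143), control replicate 1 (0.879) or control replicate 2 (0.0906), and that in OPCs without control replicate 2 (0.067) and in DESeq2 (0.257), which gave astrocytes no adjusted p; the log2 fold change stayed at or below -2.88 in each.

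In the 3 clusters of inhibitory neurons, Wls RNA was lower in both mutants than in both controls. In inhibitory neurons 12, Wls was at 82.3 and 81.8 CPM in the controls and at 14.6 and 10.6 CPM in the mutants. In inhibitory neurons 5, the largest inhibitory cluster, it was at 59.3 and 65.1 CPM in the controls and at 18.9 and 25.4 CPM in the mutants. In inhibitory neurons 18, a small cluster, it was at 38.8 and 42.1 CPM in the controls (5 and 9 UMIs) and at 0 and 1.95 CPM in the mutants (1 UMI in all). Pooled mutant levels were 13.8%, 37.5% and 3.39% of control, and the effect in none of the 3 passed the test of a difference from the other types given below (edgeR FDR 0.879, 1 and 1). Cluster 12 passed the call (log2 fold change -2.78, SE 0.296, edgeR FDR 5.53e-04), which 0.042% of its genes did in the lower direction, and Wls had the lowest p of 9523 genes there. Cluster 5 did not (-1.43, SE 0.195, edgeR FDR 0.0917), although it passed in DESeq2, with no filter on low counts and with the replicate number as a block. Nor did it pass with RLE scaling, with library totals alone or without the 5% of nuclei with the most UMIs. The edgeR FDR was as high as 0.139 there. With each library left out, its log2 fold change was -1.70 to -1.28. Cluster 18 had too few UMIs to pass the filter on low counts and was not tested.

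Excitatory neurons began from lower levels and differed among themselves. In CA1, Wls was at 16.5 and 14.8 CPM in the controls (181 and 255 UMIs) and at 3.94 and 4.89 CPM in the mutants (36 and 129 UMIs). It had the lowest p of 16785 genes in CA1 (5.65e-05, edgeR), with a log2 fold change of -1.82 (SE 0.234) and an adjusted p of 0.421. CA1 passed the call in DESeq2, with no filter on low counts and with the replicate number as a block. It did not pass with RLE scaling, with library totals alone or without the 5% of nuclei with the most UMIs. The adjusted p was as high as 0.467 there (edgeR). With each library left out, the log2 fold change was -2.00 to -1.70. Excitatory neurons 10, 13 and 7 had pooled mutant levels of 17.7%, 22.9% and 25.3% of control with edgeR FDRs of 0.207, 0.514 and 0.909, and in each the mutants were below the controls. Excitatory neurons 7 rested on controls far apart, at 8.62 and 29.4 CPM.

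CA3 pyramidal cells and granule cells had the smallest log2 fold changes among the types tested with all libraries in. They also had the lowest control levels among those types, near the 3.94 and 4.89 CPM that CA1 kept in the mutants. How far this low start limited the fold changes was not tested. In CA3, Wls was at 4.13 and 6.71 CPM in the controls and at 2.04 and 4.97 CPM in the mutants, and the ranges overlapped. In granule cells, which were 2336 and 2007 nuclei in the controls but 90 and 463 in the mutants, it was at 3.34 and 4.43 CPM in the controls and at 4.83 and 5.55 CPM in the mutants, the only type of 18 in which both mutants were above both controls. Of all genes with enough UMIs in granule cells, 19.1% had both mutants above both controls. The log2 fold changes were -0.45 (SE 0.420, edgeR FDR 0.706) in CA3 and 0.49 (SE 0.423, edgeR FDR 0.622) in granule cells. The CA3 value depended on single libraries and ran from -1.38 without mutant replicate 2 to -0.05 without control replicate 2, with -0.71 without control replicate 1 and -0.16 without mutant replicate 1. Pooled mutant levels were 76.8% of control (counting interval 55.4% to 106%) in CA3 and 137% (81.8% to 221%) in granule cells. Both counting intervals lie above the 30.0% of CA1, but they leave out the spread between mice. Of the 74 mutant UMIs in CA3, 68 came from mutant replicate 2. Granule cell Wls rests on 2 and 19 mutant UMIs, and in CA2 cells, excitatory neurons 8 and mossy cells (MC) no sample was above 7.51 CPM and Wls was not tested.

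Among the 18 types compared, the 3 with the highest control levels also had the highest levels in the mutants. Cluster 14 stood at 181 and 195 CPM in the mutants against 499 and 471 CPM, 40.2% of control (log2 fold change -1.33, SE 0.263, edgeR FDR 0.726). Cluster 19 stood at 42.1 and 98.9 CPM in the mutants, 26.6% of control (edgeR FDR 0.322). Microglia, which arise outside the neural tube, stood at 46.4 CPM (1 UMI in 13 nuclei) and 91.8 CPM in the mutants against 160 and 208 CPM, 45.6% of control (-1.11, SE 0.360, edgeR FDR 0.705). The ranges of the genotypes were apart in all 3, and none passed the call.

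Counted over types, both mutants were below both controls in 13 of 18 types, above in 1 and overlapping in 4. Over all gene and type pairs with enough UMIs, the mutant range was below the control range in 20.4%. Wls could be tested in 14 types. It was lower in the mutants in 13 of them by the sign of the log2 fold change, in 12 with an unadjusted p below 0.05, and in 4 it passed the call, against 0.0889% of all gene and type pairs tested. DESeq2 also called 4 types, namely CA1, oligodendrocytes and inhibitory neurons 5 and 12.

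**Figure D3:**
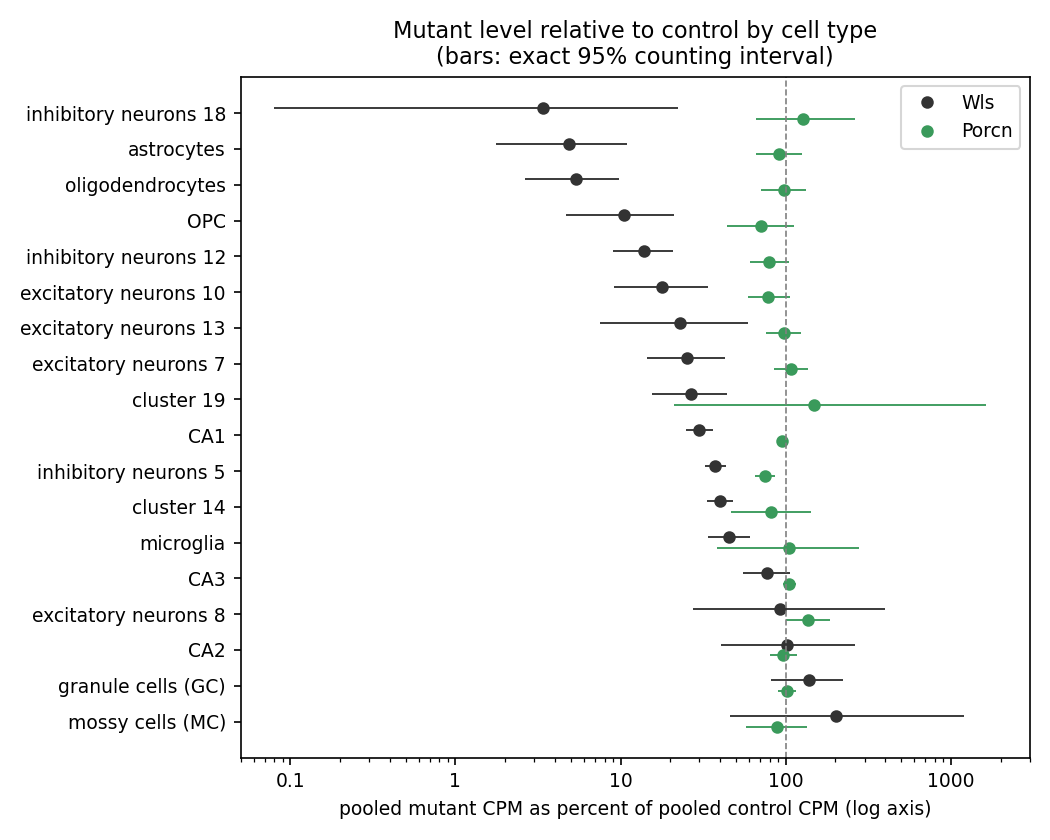
Pooled mutant CPM as a percent of pooled control CPM on a log axis, for Wls (black) and Porcn (green) in 18 cell types ordered by the Wls value; bars are exact 95% counting intervals and the dashed line is the control level. Wls runs from 3.39% in inhibitory neurons 18 to 137% in granule cells and 201% in mossy cells (10 UMIs in all). In between are 4.86% in astrocytes and 30.0% in CA1. Porcn stays between 70.4% and 147%, the latter in cluster 19 on 4 mutant and 2 control UMIs.

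The share of nuclei with at least 1 Wls UMI, which also depends on depth, was lower in both mutants in astrocytes, oligodendrocytes and cluster 14. In astrocytes it was 7.74% and 10.5% in the controls and 0.599% and 0.532% in the mutants. In oligodendrocytes it was 12.1% and 18.2% in the controls, 0 of 73 nuclei in mutant replicate 1, which allows up to 4.11%, and 0.989% in mutant replicate 2. In cluster 14 it was 68.3% and 71.5% in the controls and 32.8% and 40.0% in the mutants. No cell type here is known to lack Wls, and the lowest control shares were 1.23% and 1.10% in excitatory neurons 8, at medians of 4484 and 7142 UMIs per nucleus against 1986 and 3440 in astrocytes. The mutant astrocyte shares were below these, and whether the remaining UMIs came from those nuclei or from free RNA was not tested. With each nucleus thinned to 1500 UMIs, the shares were 5.91% and 5.09% in control astrocytes against 0.599% and 0 in mutant astrocytes, and 56.1% and 48.8% in control cluster 14 against 25.0% and 26.0% in the mutants.

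Whether the genotype effect differed between cell types was tested directly, in 1 model over all sums of sample and type with the mouse as a block. The joint test for Wls gave F = 9.49 and an edgeR FDR of 5.24e-08. It stood at rank 2 by F of 15499 genes, of which 1.72% passed. The test rested on mutant replicate 2, the deepest sample with 76486132 UMIs: without it F was 1.95 and the FDR 0.600, and with any other sample left out the FDR passed. Against the mean of the other types, the effect was more negative in astrocytes (-2.71, edgeR FDR 0.0132) and oligodendrocytes (-2.57, edgeR FDR 0.00978) and less negative in CA3 (1.46, edgeR FDR 0.0213) and granule cells (2.32, edgeR FDR 0.00378), all on the log2 scale. Over all gene and type pairs, 0.102% passed this test. In CA3 and granule cells no control sample was above 6.71 CPM, against 38.8 CPM or more in astrocytes and oligodendrocytes. Without mutant replicate 2, none of these 4 differences passed. CA3 also lost its call without control replicate 1 (edgeR FDR 0.241), oligodendrocytes lost theirs without control replicate 2 (0.062), and with no mouse block only granule cells passed (0.0281).

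**Figure D4:**
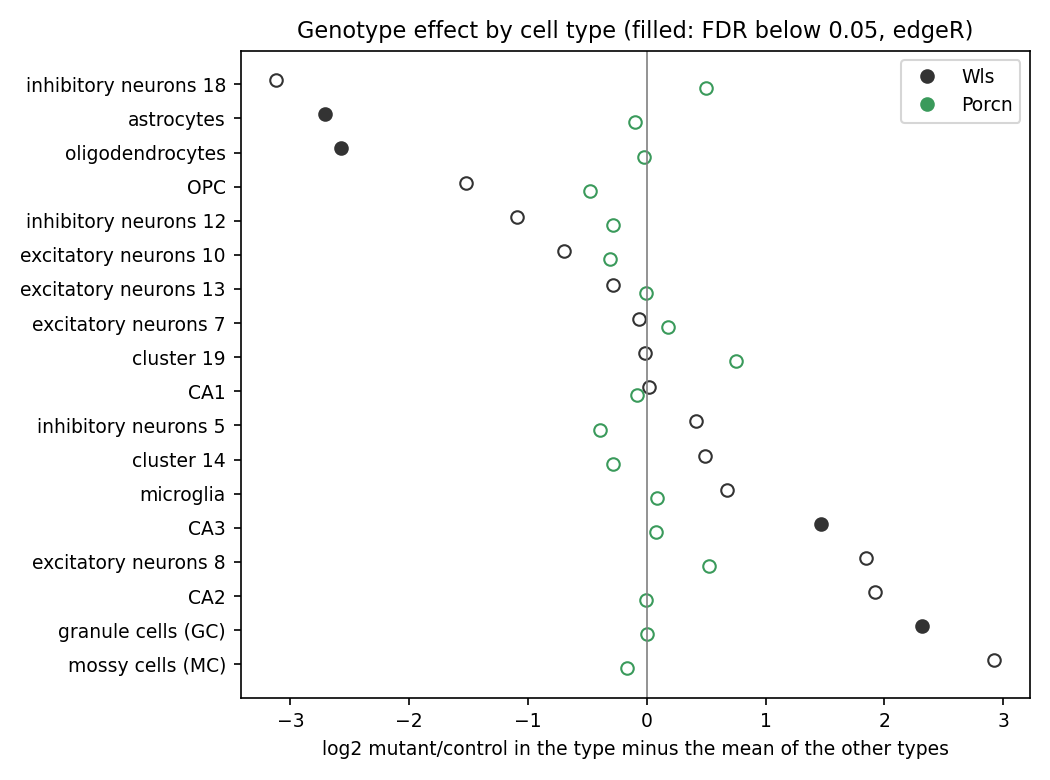
Log2 mutant over control in each of 18 cell types minus the mean of the other types, for Wls (black) and Porcn (green), from the model over all sample and type sums; filled points passed an FDR of 0.05 in edgeR. The 4 filled points are Wls in oligodendrocytes (-2.57), astrocytes (-2.71), CA3 (1.46) and granule cells (2.32), and no Porcn point is filled.

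When all nuclei of a sample were summed, Wls was at 6.96 and 11.7 CPM in the mutants and at 20.7 and 27.4 CPM in the controls. The ranges did not overlap, but the share of all genes with ranges apart in these sums is not given here. The log2 fold change was -1.38 (SE 0.269) with an edgeR FDR of 0.185, close in size to the -1.31 of bulk tissue. No gene passed the call in these sums by edgeR, although 3042 had an unadjusted p below 0.05, and DESeq2 gave Wls an adjusted p of 4.40e-04. Since the samples differed in their mix of types, Wls was also averaged over the 18 types compared, with each given its control share of UMIs. It then stood at 6.69 and 8.84 CPM in the mutants and 22.9 and 24.6 CPM in the controls, 32.7% of control, with p = 0.333 in an exact two-sided permutation test, the smallest that 2 against 2 samples can give. With the mix held fixed and the types outside these 18 left out, the 2 mutants lay closer together than in the plain sums. Those left out include CP, which held 12.8% of the Wls UMIs of mutant replicate 2 and was absent from mutant replicate 1.

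Wls was not compared between genotypes in 3 types with under 10 nuclei in some sample. CP nuclei were 9 in control replicate 1 (117 CPM, 7 UMIs) and 184 in mutant replicate 2 (120 CPM, 115 UMIs), and were absent from the other samples. Nuclei labelled EC gave 182 CPM in control replicate 2 and 276 and 50.3 CPM in the mutants, on at most 20 UMIs each. The cluster labelled inhibitory neurons 15, which had excitatory markers at 358 CPM and inhibitory markers at 16.2 CPM, gave Wls at 3.84 and 5.82 CPM in the mutants and rested on 15 nuclei and 1 nucleus in the controls.

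Porcn, which was left intact, had a different distribution. In the controls it was highest in neurons, with CA2 cells at 95.7 and 74.3 CPM, granule cells at 77.2 and 75.9 CPM and excitatory neurons 13 at 62.0 and 80.9 CPM. It was lowest in cluster 19 (13.4 and 9.14 CPM) and microglia (16.5 and 11.1 CPM), and stood at 30.4 and 26.7 CPM in astrocytes. Of 17 neighbouring pairs in this order, 13 overlapped, so few steps exceeded the spread of 2 mice. Granule cells, which had almost the least Wls, were thus near the top for Porcn, and microglia and cluster 19 the reverse. Over the 18 types, the control means of log2(CPM + 1) of Wls and Porcn had a Pearson r of -0.711, a description of points that share libraries and differ in depth.

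The genotype effect on Porcn was small in most types with enough UMIs. In astrocytes it stood at 22.9 and 25.9 CPM in the mutants against 30.4 and 26.7 CPM, and in oligodendrocytes at 50.2 and 30.9 CPM against 35.9 and 32.6 CPM. In granule cells it stood at 60.4 and 80.0 CPM in the mutants against 77.2 and 75.9 CPM. The widest pooled ratios among the types tested were 70.4% of control in OPCs and 136% in excitatory neurons 8. Of 15 types tested none passed the call in edgeR or DESeq2, and the log2 fold changes ran from -0.46 to 0.48 with a median of -0.11. The lowest unadjusted p, and the only 1 below 0.05, was in inhibitory neurons 5 (0.0465, edgeR FDR 0.447), where Porcn was at 36.0 and 34.4 CPM in the mutants and 48.8 and 45.2 CPM in the controls, a log2 fold change of -0.39 (SE 0.170). The ranges overlapped in 11 of 18 types, with the mutants below in 5 and above in 2. Over all gene and type pairs with enough UMIs, 20.4% had the mutants below. By type, 12.3% to 23.7% of genes had them above. The joint test over types gave F = 1.15 with an edgeR FDR of 0.905. In all nuclei summed, Porcn was at 44.4 and 48.6 CPM in the mutants and 57.3 and 55.8 CPM in the controls (log2 fold change -0.31, edgeR FDR 0.346), and with the mix of types held at that of the controls it was 50.2 and 56.7 CPM against 56.7 and 56.6 CPM, 94.3% of control (exact permutation p = 1).

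**Figure D5:**
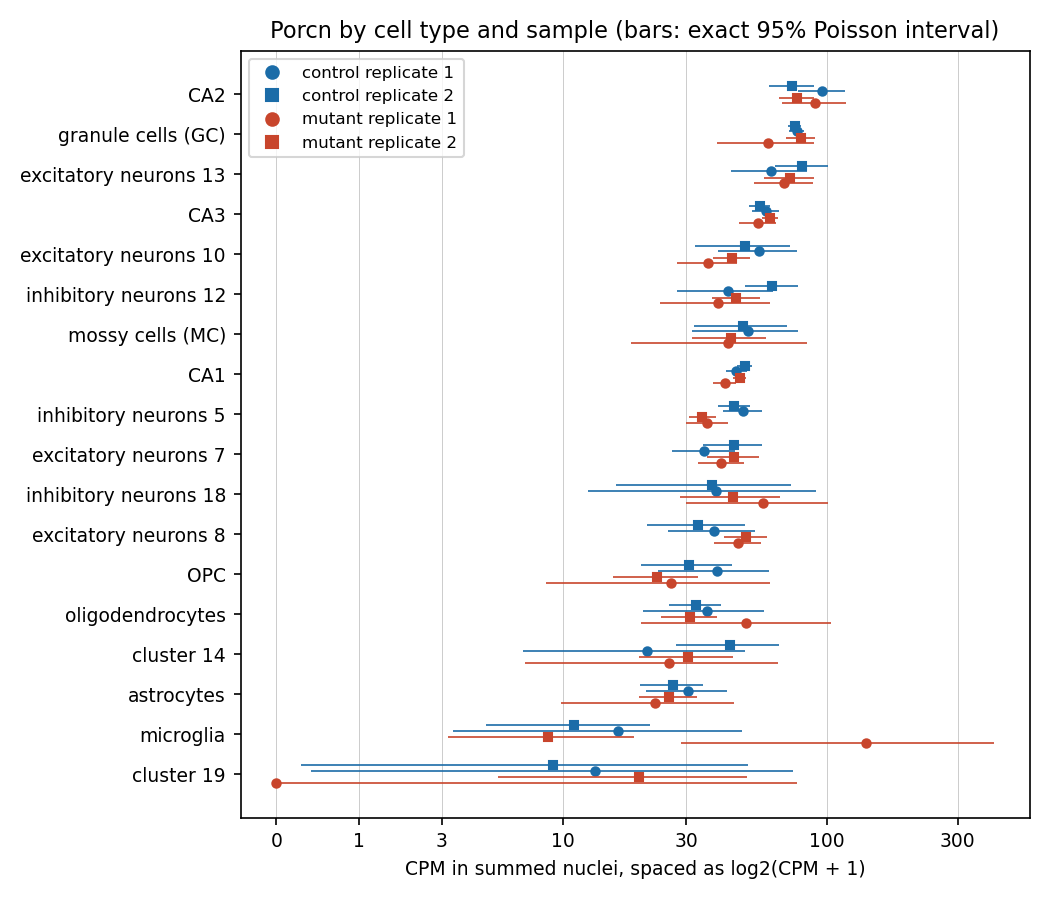
Porcn level in CPM (axis spaced as log2(CPM + 1)) in the summed nuclei of 18 cell types for the 4 snRNAseq samples, drawn as for Wls, with exact 95% Poisson intervals. Blue control and red mutant points overlap in 11 of 18 types, and the mutant replicate 1 point of microglia at 139 CPM rests on 3 UMIs in 13 nuclei.

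The genes whose control levels over the 18 types were most like those of Wls were Stt3a (r = 0.903), Pdcd10 (0.899), Gm42418 (0.890), Il6st (0.887) and Uty (0.884), of 8343 genes that reached 50 CPM in some type. Those most like Porcn were Rps6kb2 (0.914), Mecr (0.901), Jakmip2 (0.896), Erich6 (0.889) and Gm11099 (0.886), of 12417 genes that reached 20 CPM. Each r is Pearson's over the means of 2 control samples on the log2(CPM + 1) scale, and is a description with no test.

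Wls carries the Wnts that a cell makes, and the Wnt RNA with the highest mean control level was not the same in every type. This is a ranking of levels with no test, and some leads rest on few UMIs, such as Wnt4 in microglia at 5.51 and 12.5 CPM in the controls. Among 19 Wnt ligands, Wnt7a led in astrocytes, at 54.5 and 68.4 CPM in the controls and 60.2 and 59.3 CPM in the mutants. Its level there was thus near equal between genotypes while Wls was nearly lost. Wnt4 led in cluster 14, at 222 and 236 CPM in the controls and 213 and 278 CPM in the mutants, and also led in CA1, microglia and excitatory neurons 7 and 10. Wnt5b led in CA2, CA3, mossy cells, oligodendrocytes, excitatory neurons 8 and the inhibitory clusters 5, 12 and 18, with 74.2 and 79.3 CPM in control inhibitory neurons 5 against 85.8 and 83.9 CPM in the mutants. Wnt7b led in granule cells, OPCs and excitatory neurons 13, and Wnt9a led in cluster 19 (80.4 and 119 CPM in the controls, 210 and 24.7 CPM in the mutants).

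Other genes of Wnt release and reception were mostly level in bulk. Of 10 tested genes for the traffic of Wls and Wnts, such as the retromer subunits Vps35 and Vps26a, none passed the call, with a median log2 fold change of 0.03 against 0.01 for all genes tested. The same held for 5 of 5 genes of Wnt acylation and deacylation (median -0.04), 17 ligands tested of 19 (median -0.05) and 15 of 15 receptors (median 0.09). Of 11 tested targets and feedback genes of beta-catenin, 2 were lower (median of the list -0.27), where 0.198% of all genes were called lower. They were Prox1, a transcription factor of DGCs, at 32.4 and 18.8 CPM in the mutants against 165 and 174 CPM (log2 fold change -2.73, edgeR FDR 0.0244), and Lgr6, a receptor for R-spondins, at 4.93 and 2.43 CPM against 36.1 and 32.8 CPM (-3.24, edgeR FDR 0.0282). The DGC markers, of which Prox1 is 1, were lower in the same libraries. DESeq2 called 1 more member, the ligand Wnt16.

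Within cell types, the lists gave 2 calls in 474 gene and type pairs, both in granule cells and both higher in the mutants. Over all pairs tested 0.101% were called higher, and within granule cells 0.827% of genes were. Trabd2b, a metalloprotease that inactivates Wnts, was at 9.66 and 13.4 CPM in the mutants against 2.198 and 4.00 CPM (log2 fold change 2.01, edgeR FDR 0.0459, 4 and 46 mutant UMIs). Wnt4 was at 21.7 and 40.6 CPM against 5.28 and 8.91 CPM (2.31, edgeR FDR 0.0137). DESeq2 called Wnt4 and not Trabd2b, and neither was called without mutant replicate 1 or without mutant replicate 2. The study reported that most granule cells left in the mutants lay in the ventral dentate gyrus. The part of this difference in region in the 2 calls was not tested. No other member of the lists passed in any type. Prox1, which was lower in bulk, had a log2 fold change of 0.18 (edgeR FDR 0.620) within granule cells.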

How the data were processed

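The bulk RNAseq reads were aligned by the authors to mm10 with RSEM 1.3.0 and Bowtie2 2.2.9, and the authors deposited an expected count and a TPM value per gene and library. A deposited matrix holds a signal, the expected count divided by a size factor that the authors set per library. Reads of nuclei were aligned by the authors with Cell Ranger 3.1.0 to a pre-mRNA index, and they deposited a table of UMI counts, genes by nuclei, for the nuclei they kept, with an assigned cell type and a size factor per nucleus. That factor is a ratio, and the authors' values differed 1.005 to 1.009-fold from the ratio of total UMIs recomputed here. The study's own tests (EBSeq, and Monocle for nuclei) were not run. Doublets were not called here.

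Rounded expected counts, and UMIs summed per sample and cell type, were tested with edgeR 4.0.16 (quasi-likelihood, TMM scaling, filterByExpr, Benjamini-Hochberg over all genes tested) in R 4.3.3. Genes were called at an FDR below 0.05 and an FC above 3 in bulk or 2 in nuclei. Cell types needed 10 nuclei in every sample. DESeq2 1.42.0 and limma 3.58.1, with a pseudocount of 1, served as alternatives. Calculations were tested on simulated data. Intervals are exact at 95% and cover counting error only, and a count of 0 allows up to 3 counts. Nothing states that replicates of a group came from separate litters, so p-values measure the spread between these samples. The members and the lists were chosen with earlier results of these data known. Genes were named if they were members, were the leading ligand of a type, passed the call within a list, lay next to Wls or were among the 5 most similar genes.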

Additional observations from a re-analysis of the deposited data

Results flagged for a closer look

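The genotype effect on Wls differed between cell types, with a joint F of 9.49 in edgeR. The types that differed from the mean of the others were astrocytes (-2.71), oligodendrocytes (-2.57), CA3 (1.46) and granule cells (2.32, on 21 mutant UMIs), all on the log2 scale. Control levels in CA3 and granule cells were at most 6.71 CPM. None of the 4 passed without mutant replicate 2.

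CP nuclei of mutant replicate 2, which entered no test, had Wls at 120.0 CPM (115 UMIs in 184 nuclei), against 117 CPM (7 UMIs in 9 nuclei) in control replicate 1.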

How the results depend on the processing

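No called result changed direction under the alternatives run. Leaving out 1 library moved the log2 fold change of Wls in bulk between -1.84 and -0.94, the joint F over cell types between 1.95 and 9.29, and the number of types that differed from the others between 0 and 4. With no mouse block, 1 type differed. Wls in all nuclei passed the call in DESeq2 (-1.38) and with the replicate number as a block (-1.41). With no filter on low counts, 10 of 18 types were called for Wls in place of 4 of 14, and with the replicate block 6 were. DESeq2 called 1 list member in nuclei in place of 2. Same-numbered libraries had a correlation of deviations from their group means of 0.064 in bulk and 0.516 in nuclei; only 2 pairs exist and nothing states what a number shares. Of 152 alternative values for Wls by type, 142 were negative, 17 newly passed the call and 5 no longer did, with astrocytes in DESeq2 left out for want of an adjusted p. Merging the clusters labelled excitatory gave -2.17 (edgeR FDR 0.216) and those labelled inhibitory -1.74 (edgeR FDR 0.0717), which was chosen, as were the bulk ratios within a replicate number, after seeing the data. Thinning left the mutants below the controls in 12 of 18 types. Clusters in place of cell types were not run, since the assigned types are the clusters. In 4 types Wls had too few UMIs to be tested, which for CA2, excitatory neurons 8 and mossy cells came with control levels of at most 4.87 CPM and for inhibitory neurons 18 with 23 to 75 nuclei in a sample.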
